A study of Homo sapiens with 12 samples.

Results

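The 10 genes followed here encode heme-dependent enzymes or heme-binding proteins outside the respiratory chain, and their mRNAs were read in OCI-AML3 cells, a long-established line of human acute myeloid leukaemia. They were chosen by name for their need of heme, with earlier results of these data already known. Each symbol was matched to the Ensembl identifier with the most reads among 57905 in the count table. All 10 were found and all 10 passed the filter on low counts, as did 13832 identifiers in all. The genes are CYP1B1, CYP2U1 and TBXAS1 (cytochrome P450 fold), PTGS1 and PTGS2 (the cyclooxygenases), CAT (catalase), SUOX (sulfite oxidase), CYB5A and CYB5B (cytochromes b5) and DGCR8 (a heme-binding partner of the nuclease that cuts primary microRNAs). The question put to them was whether their mRNAs follow the supply of heme.

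The 12 libraries fall into 4 groups of 3. SA cells received the compound SA at 500 µM for 6 days, and Vehicle cells vehicle alone over the same 6 days. SA is not spelled out in the labels; in work on heme it stands for succinylacetone, which blocks ALAD, an early enzyme of heme synthesis. sgALAS1 cells carried a guide RNA against ALAS1, whose product sets the pace of heme synthesis in most cells, and sgSCR cells carried a scrambled guide; both received doxycycline for 7 days to switch the guide on. The SA and Vehicle cells are not labelled as carrying a guide or receiving doxycycline, so guide, doxycycline and days differ together between the controls. How many clones or guides were used is not stated, and a tag at the 3′ end of the mRNA need not read the edited site, so the ALAS1 level is no full check of the edit. Whether replicates came from separate cultures is not labelled, so the p-values rest on the spread among these libraries alone, which may be technical.

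Heme is an iron porphyrin made in steps shared between mitochondria and cytosol. Proteins that carry it use the iron to bind oxygen, to split peroxides or to pass on electrons, and enzymes of this kind are inactive without it. The libraries read mRNA levels. They hold no measure of heme or of enzyme activity.

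Libraries were made with QuantSeq, which reads a tag near the 3′ end of polyadenylated mRNA, and held between 4658513 and 7339843 assigned reads. Levels are normalised counts scaled to library size (CPM), and fold changes are on the log2 scale with a standard error (SE) and adjusted p from edgeR's quasi-likelihood test; a gene is called at an adjusted p under 0.05 over all 13832 genes. ALAS1 itself stood at 102 to 111 CPM in SA, against 31.1 to 37.5 CPM in Vehicle, and at 26.2 to 27.3 CPM in sgALAS1, against 37.4 to 41.9 CPM in sgSCR; it was called in both arms (adjusted p = 1.36e-09 and 0.00777). HMOX1, the enzyme that opens the heme ring and that heme itself and oxidants induce, averaged 29.6 ± 6.58 CPM in SA against 2.30 ± 0.60 CPM in Vehicle, and 8.63 ± 5.22 CPM in sgALAS1 against 1.40 ± 0.17 CPM in sgSCR (SD, n = 3 each). All 15 myeloid markers were read well enough to test, among them SPI1, CEBPA and ELANE. Of 16 erythroid and megakaryocyte markers 7 had 0 reads, among them the globins HBA1, HBA2 and HBB and the red cell marker GATA1. On that list 3 were tested, TFRC (3459 reads over the 12 libraries), EPOR (504) and GP1BA (136), and 0 were called by edgeR in either arm. The globin HBG2 had 17 reads, ALAS2 24 and KLF1 12, too few to test. Summed over the list, myeloid markers took 3310 to 3620 CPM in SA against 2600 to 2800 in Vehicle, and 3240 to 3390 in sgALAS1 against 2490 to 2920 in sgSCR. LYZ carried that gain: the other 14 markers summed to 1990 to 2130 CPM in SA against 2030 to 2310 in Vehicle, and to 2190 to 2390 in sgALAS1 against 2110 to 2570 in sgSCR. With SA 3 myeloid markers were called higher (LYZ, CD14, SPI1) and 2 lower (CTSG, PRTN3), and in sgALAS1 5 higher (LYZ, CD14, CSF1R, ANPEP, CEBPA) and 1 lower (PRTN3). Of 11 lymphoid markers 4 were tested: IL7R was called higher and CD3D lower in both arms and NKG7 lower in sgALAS1, CD3E had 0 reads, and the list summed to 116 to 132 CPM in SA against 83.3 to 102 in Vehicle and 106 to 116 in sgALAS1 against 86.3 to 107 in sgSCR. Without IL7R the lymphoid sum was 72.3 to 82.6 CPM in SA against 70.8 to 94.6 in Vehicle, and 66.8 to 75.7 in sgALAS1 against 78.0 to 99.6 in sgSCR. Among the 15 myeloid and the 4 lymphoid markers tested, the share called was above that of all tested genes in each arm. Of all tested genes edgeR called 11.1% with SA and 11.7% in sgALAS1. Whether this excess exceeds what such short lists could show by sampling was not tested. The part of these markers in the results below was not tested. In bulk RNA fewer cells of a type and less RNA per cell cannot be told apart.

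CYP1B1 fell in both arms, PTGS2 rose with SA, and the other 8 were not called in either arm. With SA 2 of 10 members were called, where 11.1% of all tested genes were (4.83% higher and 6.24% lower), and in sgALAS1 cells 1 of 10, where 11.7% were (4.88% higher and 6.85% lower). With 10 members, these counts lie near the background of each comparison. The members' median log2 fold change was 0.05 with SA, beside -0.0095 for all tested genes, and 0.06 in sgALAS1, beside -0.0034 for all. The 3 libraries of SA lay wholly above or below the 3 of Vehicle for 2 members, PTGS2 and CYP1B1, against 27.4% of all tested genes, and those of sgALAS1 lay apart from those of sgSCR for 1, CYP1B1, against 29.1%.

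**Figure D1:**
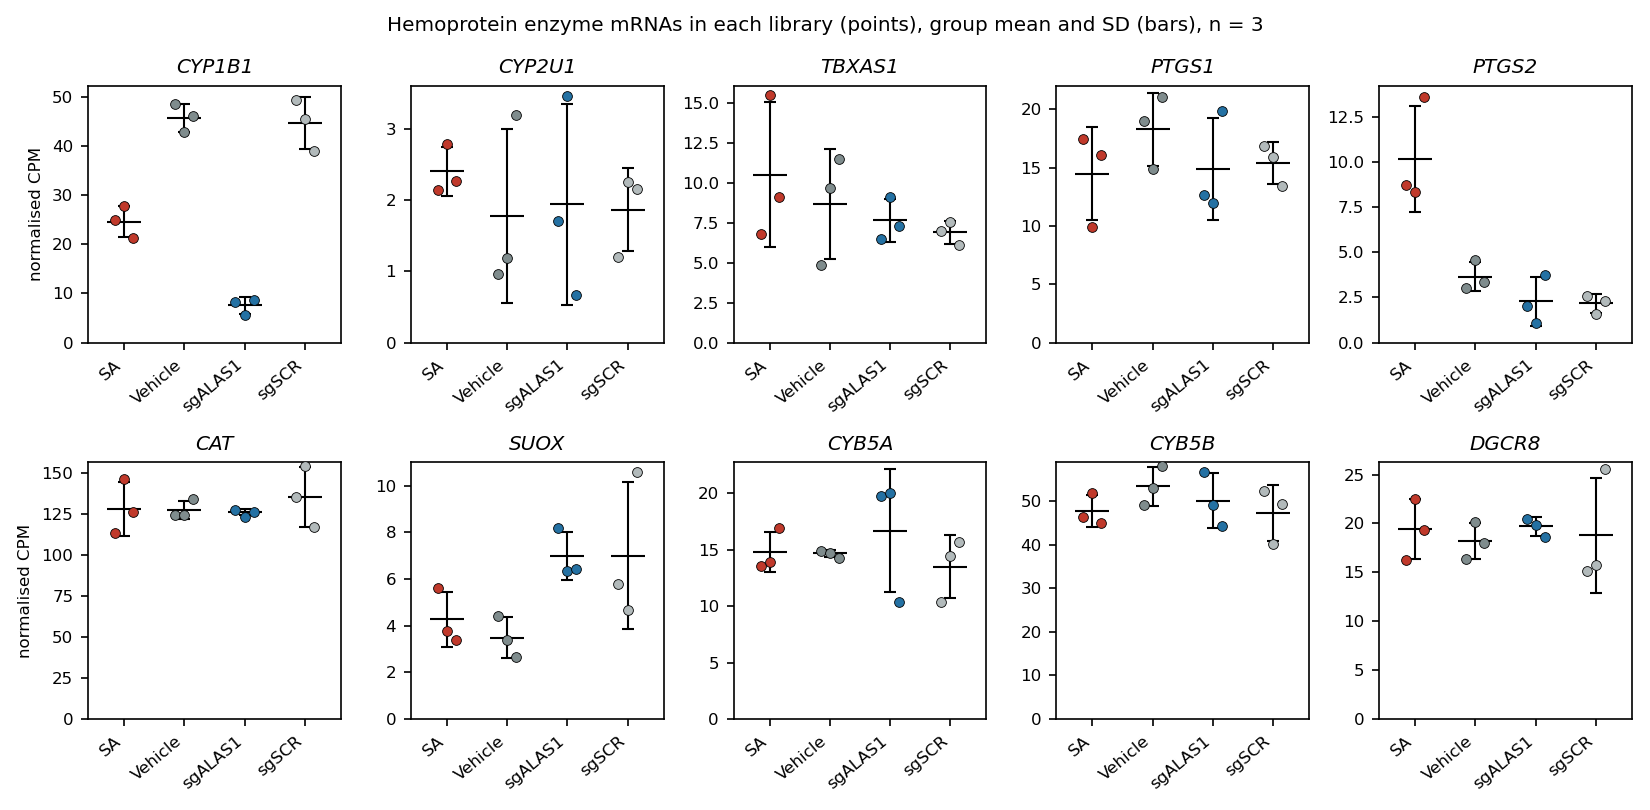
Normalised CPM (vertical axis, from 0) of the 10 hemoprotein genes in each of the 12 libraries (points), with group means and SD (bars, n = 3). CYP1B1 lies between 5.63 and 8.64 CPM in sgALAS1 and between 21.2 and 27.7 CPM in SA, below every control library, and PTGS2 reaches 8.36 CPM or more only in SA.

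Sequences of the members that carry or frame these results can be read from RefSeq (build GRCh38.p14). PTGS2 is shown because it rose, and because elements close to its start are known to take part in its induction. The 250 bases before its start, chr1:186680424-186680673 on the minus strand, are given 5′ to 3′ with capitals for a match to TGACG, core letters of the element that CREB and ATF proteins bind, here on the opposite strand, and for the TATA box letters TATAAA.

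PTGS2: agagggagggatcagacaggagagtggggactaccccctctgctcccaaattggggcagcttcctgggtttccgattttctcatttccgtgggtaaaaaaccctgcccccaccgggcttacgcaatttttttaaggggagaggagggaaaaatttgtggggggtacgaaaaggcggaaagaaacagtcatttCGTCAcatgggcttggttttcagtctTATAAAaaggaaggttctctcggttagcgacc

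The first match begins 58 bases before the start and the second 32 bases before it. Of 35116 promoter windows of this length, 21.2% hold TGACG and 10.7% hold TATAAA on either strand. Windows were matched for 9 of the 10 members, all but CYP1B1. Among them TGACG was in 1, PTGS2, and TATAAA in 3, PTGS2, PTGS1 (in 1 of its listed windows) and TBXAS1. The core of the element bound by the aryl hydrocarbon receptor (AHR), GCGTG, was in 2, CYB5A and DGCR8, against 32.2% of all windows. TGACNNNGC, the core of the antioxidant response element, was in 2, PTGS1 and TBXAS1, against 10.9%, and TGAGTCA, part of the element for AP-1 and for BACH1 with MAF, was in 0 against 4.2%. A match describes letters in this window only.

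DGCR8 is the member that handles sequence itself. Its heme-bound dimer holds primary microRNA hairpins for DROSHA, and its own mRNA carries hairpins that the complex can cut, so the mature microRNAs encoded within it are shown, with the seed (bases 2 to 8) in capitals. They lie on chromosome 22, plus strand, at chr22:20085797-20085818, chr22:20086072-20086093 and chr22:20086112-20086129.

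hsa-miR-3618: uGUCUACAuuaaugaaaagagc
hsa-miR-1306-5p: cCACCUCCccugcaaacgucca
hsa-miR-1306-3p: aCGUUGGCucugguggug

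Their seeds are all different, and counts for the mature forms were not analysed here.

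Among the P450 enzymes, CYP1B1 (ENSG00000138061, chromosome 2) carries the result. It oxidises estrogens, retinoids and polycyclic aromatic compounds, with electrons from POR, and is a known target of AHR. Its level was 24.9, 27.7 and 21.2 CPM in the SA libraries, against 48.4, 42.8 and 46.0 CPM in Vehicle. Every SA library lay below every Vehicle library. The log2 fold change was -0.90 (SE 0.17, 95% interval -1.25 to -0.55, adjusted p = 0.000598), a level 1.87-fold lower in SA.

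In the guide arm CYP1B1 stood at 8.34, 5.63 and 8.64 CPM in the sgALAS1 libraries, against 49.4, 45.5 and 38.9 CPM in sgSCR. The groups were again wholly apart, and further so. The log2 fold change was -2.56 (SE 0.20, interval -2.96 to -2.16, adjusted p = 3.91e-11), a level 5.91-fold lower in sgALAS1 (interval 4.47 to 7.80), and its p-value ranked 32 among the 13832 genes tested. By raw reads the sum over 3 libraries was 124 in sgALAS1 against 766 in sgSCR, and 398 in SA against 864 in Vehicle.

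The fall of CYP1B1 was larger in sgALAS1 than with SA, and that difference was itself tested. It was -1.66 on the log2 scale (SE 0.26, interval -2.20 to -1.13, adjusted p = 0.000249), where 1.19% of all tested genes were called, 0.759% lower. The controls stood at like levels: 44.6 ± 5.33 CPM in sgSCR and 45.7 ± 2.81 CPM in Vehicle (SD, n = 3 each), a log2 difference of -0.04 (interval -0.38 to 0.30, adjusted p = 0.96). In order of level, sgALAS1 was lowest, SA next, and sgSCR and Vehicle did not differ beyond their spread. The arms differ in agent and in days of treatment together, and these cannot be told apart.

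Reads from the opposite strand of the CYP1B1 locus were few. RMDN2, which overlaps it there, had 46 reads in sgALAS1 against 24 in sgSCR, and 34 in SA against 65 in Vehicle; CYP1B1-AS1 had 12 against 18 and 5 against 3. The strand setting of the counting is not stated, so reads of overlapping genes may be shared. Of the nearest 6 tested genes along the chromosome, CDC42EP3 and GALM rose in sgALAS1 (log2 fold changes 0.81 and 0.85, adjusted p = 3.3e-06 and 0.000933), and the other 4 were not called in either arm. Between the controls, CDC42EP3 was lower in sgSCR (-0.99). The median log2 fold change of the 862 tested genes of chromosome 2 was 0.01 in sgALAS1 and -0.05 with SA.

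Of 8 tested genes of the AHR list, which leaves out CYP1B1, 2 rose with SA (25.0% called, against 11.1% of all tested genes). In sgALAS1 3 of the 8 rose and 1 fell, where 11.7% of all tested genes were called. The share called was thus above that of all tested genes in both arms, and more so in sgALAS1. Whether this excess exceeds what a list of 8 genes could show by sampling was not tested. The median was 0.26 in each arm. ARNT, the partner that AHR binds DNA with, averaged 63.3 ± 3.37 CPM in SA against 44.7 ± 2.29 CPM in Vehicle (log2 fold change 0.50, adjusted p = 0.019) and 77.2 ± 7.06 CPM in sgALAS1 against 53.0 ± 9.12 CPM in sgSCR (0.54, adjusted p = 0.00927). AHRR, the repressor of the receptor, rose in sgALAS1 (51.8 ± 6.29 CPM against 36.8 ± 7.06 CPM in sgSCR; 0.50, adjusted p = 0.036) and was at 0.25 with SA (adjusted p = 0.337). NQO1, which AHR and NRF2 both induce, rose in both arms (2.27 with SA and 1.26 in sgALAS1), though it was already 1.06 higher in sgSCR than in Vehicle. The chaperone gene HSP90AB1 fell in sgALAS1 (-0.31, adjusted p = 0.028). AHR itself was at 0.34 with SA and 0.17 in sgALAS1, and TIPARP, another target, at 0.10 and 0.34, with adjusted p-values from 0.535 (TIPARP in sgALAS1) to 0.896 (TIPARP with SA) in edgeR's test.

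Among the listed P450 genes too rare to test, CYP2S1 had 3 reads in SA against 21 in Vehicle, and 0 in sgALAS1 against 25 in sgSCR. CYP1A1, the sister enzyme of CYP1B1 most strictly tied to AHR, was also too rare to test. It had 8, 16 and 4 reads in SA against 0, 0 and 0 in Vehicle. In the guide arm it had 3, 0 and 2 reads in sgALAS1 against 0, 0 and 0 in sgSCR. With a limit of 3 reads set for each control group, SA was 10.7-fold higher and sgALAS1 1.75-fold higher. The limit covers counting error of the control group alone. The few reads in sgALAS1 carry counting error of their own, so a rise there was not shown.

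The genes whose profile over the 12 libraries was nearest to that of CYP1B1, by root mean square difference of centred log2 CPM, were TRIM16 (0.28), MEIS2 (0.29) and S100A4 (0.30), where CYP1B1 itself varied by 1.05 around its mean. TRIM16 stood at 9.75 ± 4.48 CPM in SA against 16.2 ± 2.12 CPM in Vehicle, where the groups overlap and it was not called (adjusted p = 0.0779), and at 2.54 to 4.17 CPM in sgALAS1 against 14.5 to 15.7 CPM in sgSCR (adjusted p = 9.21e-06). MEIS2, a homeobox gene, stood at 7.53 ± 0.96 CPM in SA against 18.1 ± 3.72 CPM in Vehicle, and at 3.02 ± 0.40 CPM in sgALAS1 against 19.0 ± 2.19 CPM in sgSCR. S100A4, a calcium-binding protein gene, stood at 61.8 ± 8.35 CPM in SA against 135 ± 33.3 CPM in Vehicle, and at 28.6 ± 6.08 CPM in sgALAS1 against 111 ± 21.9 CPM in sgSCR.

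The other P450 genes among the members were not called. CYP2U1 (ENSG00000155016, chromosome 4), a fatty acid hydroxylase, was near the limit of reading, with 137 reads over 12 libraries and 7 libraries at or above the filter. It stood at 2.40 ± 0.34 CPM in SA against 1.78 ± 1.22 CPM in Vehicle, and at 1.94 ± 1.41 CPM in sgALAS1 against 1.86 ± 0.58 CPM in sgSCR; the groups overlap in both arms. Its intervals, -0.91 to 1.80 with SA and -1.30 to 1.43 in sgALAS1, are the widest among the members, so changes within them were not detectable at this depth. Single libraries moved its fold by over 1.5 times: its log2 fold change was 1.15 with SA without Vehicle replicate 3, and -0.62 in sgALAS1 without sgALAS1 replicate 2, not called in either case. TBXAS1 (ENSG00000059377, chromosome 7), which turns the cyclooxygenase product into thromboxane, stood at 6.80, 15.5 and 9.08 CPM in SA against 4.83, 9.65 and 11.5 CPM in Vehicle, and at 6.48, 9.09 and 7.31 CPM in sgALAS1 against 6.97, 7.55 and 6.12 CPM in sgSCR. The groups overlap in both arms, and the log2 fold changes were 0.28 (interval -0.39 to 0.96) and 0.15 (-0.56 to 0.85). HIPK2 overlaps TBXAS1 on the opposite strand with far more reads, 1955 in SA against 1010 in Vehicle and 1735 in sgALAS1 against 776 in sgSCR, and its part in the 169 and 157, and 125 and 119, reads of TBXAS1 was not tested.

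Outside the members, 8 of 30 listed P450 genes could be tested. CYP51A1, the P450 of cholesterol synthesis, fell with SA (149 ± 10.9 CPM against 217 ± 31.3 CPM in Vehicle; log2 fold change -0.55, adjusted p = 0.00329), and was at 0.19 in sgALAS1 (170 ± 8.36 CPM against 149 ± 17.9 CPM in sgSCR, adjusted p = 0.364). Its sgSCR level was itself below Vehicle (-0.54, adjusted p = 0.0149). POR, the reductase that feeds electrons to microsomal P450s, was at 46.9 ± 1.70 CPM in SA against 35.0 ± 4.41 CPM in Vehicle and at 44.8 ± 5.52 CPM in sgALAS1 against 38.1 ± 2.98 CPM in sgSCR, and was not called (adjusted p = 0.0723 and 0.375).

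**Figure D2:**
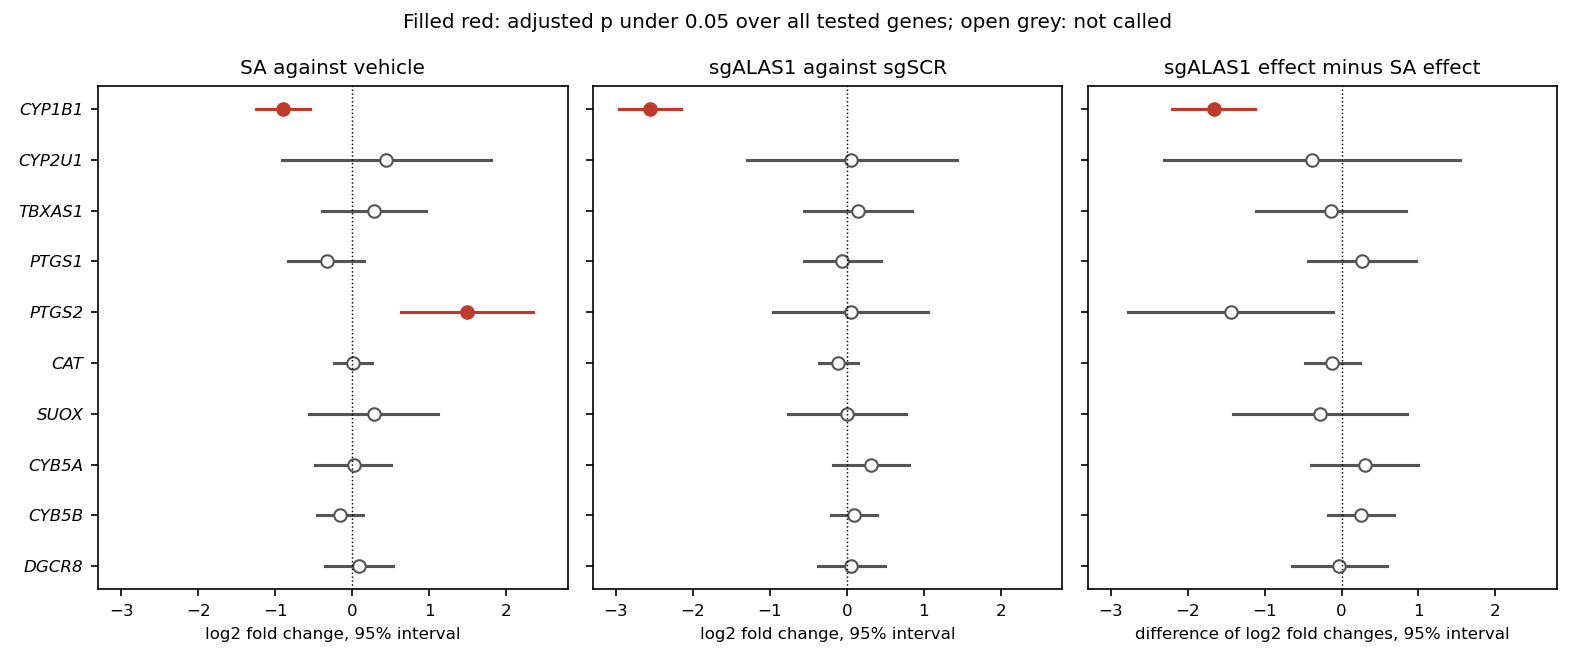
Log2 fold change with 95% interval (horizontal axis) of the 10 genes (rows) for SA against vehicle, for sgALAS1 against sgSCR and for the difference of these effects; filled red points passed an adjusted p of 0.05. CYP1B1 is filled in all 3 panels, at -0.90, -2.56 and -1.66, and PTGS2 in the first at 1.49.

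The cyclooxygenases use a heme peroxidase site to make prostaglandin H2 from arachidonic acid. PTGS2 (ENSG00000073756, chromosome 1), the inducible form, stood at 8.74, 8.36 and 13.6 CPM in SA, against 3.03, 4.57 and 3.36 CPM in Vehicle. The groups did not overlap. The log2 fold change was 1.49 (SE 0.42, interval 0.63 to 2.35, adjusted p = 0.0188), a level 2.81-fold higher in SA, from 171 reads in SA against 68 in Vehicle. The call was lost without Vehicle replicate 1 (1.37, adjusted p = 0.0619), Vehicle replicate 3 (1.44, adjusted p = 0.065) or SA replicate 3 (1.23, adjusted p = 0.139).

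In the guide arm every library lay below the SA libraries, and the groups overlap. It had 2.01, 1.09 and 3.77 CPM in sgALAS1 against 2.59, 1.61 and 2.31 CPM in sgSCR, a log2 fold change of 0.05 (interval -0.96 to 1.06, adjusted p = 0.968). The effects of the arms differed by -1.44 (interval -2.77 to -0.11) with a p of 0.0347 before and an adjusted p of 0.367 in edgeR's test, so a difference between the arms was not called. The sgSCR libraries lay below the Vehicle libraries in PTGS2, at -0.75 without a call (adjusted p = 0.538). By level SA was highest, and sgSCR was not called against Vehicle nor sgALAS1 against sgSCR.

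PTGS1 (ENSG00000095303, chromosome 9), the form present in resting cells and platelets, was not called. It had 17.5, 9.95 and 16.1 CPM in SA against 19.0, 14.9 and 21.1 CPM in Vehicle, and 12.7, 12 and 19.9 CPM in sgALAS1 against 16.9, 15.9 and 13.4 CPM in sgSCR. The groups overlap in both arms, with log2 fold changes of -0.33 (interval -0.83 to 0.16) and -0.06 (-0.56 to 0.44). The genes nearest to PTGS2 in profile, by the same measure, included MYZAP and CEMIP, each at 0.43, where PTGS2 varied by 0.93 around its mean. MYZAP and CEMIP were not called with SA (log2 fold changes 1.11 and 1.19, adjusted p = 0.183 and 0.19).

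Around these enzymes, 24 of 35 listed eicosanoid genes were tested. With SA 1 rose and 2 fell (12.5% called, near the 11.1% of all tested genes). In sgALAS1 3 rose and 3 fell (25.0%, against 11.7% of all). The medians were 0.02 and -0.03. TBXA2R, the thromboxane receptor and so the receiver of the TBXAS1 product, had 8, 0 and 6 reads in SA against 102, 49 and 49 in Vehicle, and 0, 1 and 0 reads in sgALAS1 against 69, 102 and 42 in sgSCR. Every library of SA and of sgALAS1 lay far below its controls. From summed reads, the level in SA was 0.0806 of that in Vehicle (95% counting interval 0.0433 to 0.138). That in sgALAS1 was 0.00492 of that in sgSCR (0.000124 to 0.0277). These intervals cover counting error alone, not the spread among libraries. The adjusted p-values in edgeR's test, a separate model, were 2.55e-05 and 6.42e-08. Its interval for the ratio with SA was 0.0392 to 0.18. ALOX12, a lipoxygenase without heme, had 0, 0 and 0 reads in sgALAS1 against 21, 20 and 24 in sgSCR (adjusted p = 6.6e-05 in edgeR's test). With a limit of 3 reads set for sgALAS1 and the sgSCR reads taken as they stand, it was 20.7-fold lower. With SA it had 8, 9 and 13 reads against 43, 28 and 7 in Vehicle (adjusted p = 0.256 in the same test). The effects of the arms on ALOX12 differed (adjusted p = 0.025), and those on TBXA2R were not called as different (adjusted p = 0.173).

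Of 3 tested receptors for prostaglandin E2, PTGER2 fell in sgALAS1, with 1, 0 and 2 reads against 27, 11 and 20 in sgSCR. Its ratio from summed reads was 0.0542 (counting interval 0.0109 to 0.166), with an adjusted p of 0.00786 in edgeR's test. In sgALAS1 PTGER4 rose (log2 fold change 1.25, adjusted p = 0.0183), and PTGER3 was at 0.60 without a call (adjusted p = 0.669). With SA, PTGER2 was at -1.76 and PTGER4 at 0.02, neither called (adjusted p = 0.255 and 0.981). AKR1C3, which reduces prostaglandins and is also a target of NRF2, rose in both arms: 10.6 ± 1.20 CPM in SA against 2.18 ± 0.31 CPM in Vehicle (2.28, adjusted p = 1.28e-05) and 34.4 ± 9.15 CPM in sgALAS1 against 7.87 ± 3.14 CPM in sgSCR (2.13, adjusted p = 8.59e-07). It was also 1.83 higher in sgSCR than in Vehicle. ALOX5AP, which presents arachidonic acid to 5-lipoxygenase, fell with SA (69.0 ± 4.78 CPM against 127 ± 9.68 CPM in Vehicle; -0.88, adjusted p = 1.76e-05), while its sgSCR level of 66.1 ± 6.81 CPM was already below Vehicle. PTGR1, which inactivates prostaglandins and leukotriene B4, rose in sgALAS1 (0.88, adjusted p = 0.0461).

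**Figure D3:**
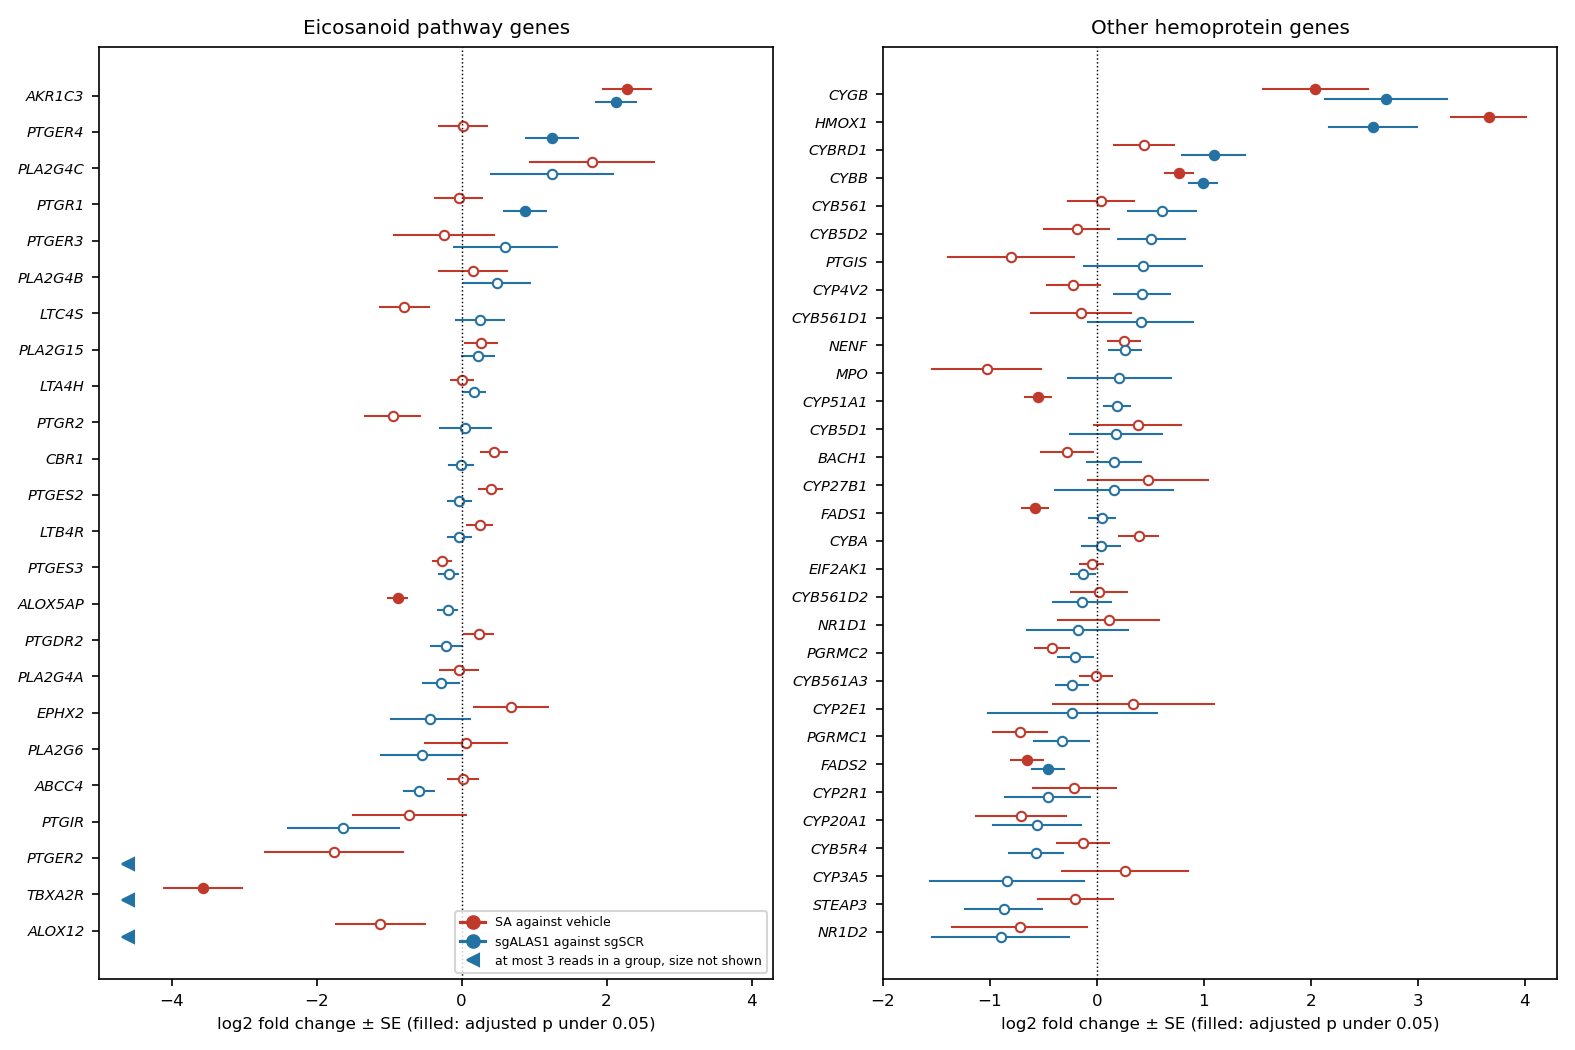
Log2 fold change ± SE (horizontal axis) of 24 eicosanoid genes and 31 other hemoprotein genes (rows), red for SA against vehicle and blue for sgALAS1 against sgSCR, filled at an adjusted p under 0.05; left-pointing marks stand for genes with at most 3 reads in a group, whose size is not drawn. AKR1C3 at 2.28 and 2.13 and HMOX1 at 3.66 and 2.58 lie far right in both arms, and TBXA2R far left.

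CAT (ENSG00000121691, chromosome 11), the peroxisomal enzyme that splits hydrogen peroxide at a heme group, was the member with the most reads and the tightest intervals. It had 113, 146 and 126 CPM in SA against 124, 124 and 134 CPM in Vehicle, and 127, 123 and 126 CPM in sgALAS1 against 135, 154 and 117 CPM in sgSCR. The libraries overlap in both arms. The log2 fold changes were 0.01 (SE 0.12, interval -0.24 to 0.26, adjusted p = 0.978) and -0.11 (SE 0.12, interval -0.36 to 0.14, adjusted p = 0.655), so a change of 1.5-fold lay outside the interval in each arm. Of 43 tested peroxisomal and peroxide enzymes 2 rose and 5 fell with SA (16.3%, against 11.1% of all tested genes, median -0.01). In sgALAS1 1 rose and 5 fell (14.0%, against 11.7% of all, median 0.04). PEX2, a subunit of the peroxisomal import machinery, fell in both arms (-0.90 and -0.71, adjusted p = 0.00461 and 0.0211), as did the peroxiredoxin PRDX4 (-0.50 and -0.60, adjusted p = 0.0498 and 0.0177). GPX7, an endoplasmic reticulum peroxidase, fell with SA (-1.94, adjusted p = 0.0025) and PRDX1, a cytosolic peroxidase, in sgALAS1 (-0.44, adjusted p = 0.00815).

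SUOX (ENSG00000139531, chromosome 12) oxidises sulfite to sulfate in the mitochondrial intermembrane space with a heme of the b5 type and a molybdenum cofactor. It had 5.63, 3.78 and 3.40 CPM in SA against 4.41, 3.38 and 2.65 CPM in Vehicle, and 8.18, 6.36 and 6.43 CPM in sgALAS1 against 5.78, 4.66 and 10.6 CPM in sgSCR. The groups overlap in both arms, with log2 fold changes of 0.28 (interval -0.56 to 1.11) and -0.0011 (-0.77 to 0.77). The gap lay between the controls instead: every sgSCR library stood above every Vehicle library, at 4.66 CPM or more in sgSCR against 4.41 CPM or less in Vehicle. The log2 difference was 0.99 (interval 0.19 to 1.80), not called by edgeR's quasi-likelihood test (adjusted p = 0.246). In that comparison of controls 0 of 10 members were called by edgeR and 0 by DESeq2, where edgeR called 1.43% of all tested genes. An unadjusted p under 0.05 in edgeR's test was held by 1 member, and by 1748 of all 13832 tested genes. For 2 members the control groups did not overlap, SUOX with sgSCR above and PTGS2 with sgSCR below. The groups lay apart for 17.1% of all genes (8.42% above and 8.73% below). Of 14 tested genes of the molybdenum cofactor and sulfite pathway 1 rose and 2 fell in each arm (21.4%). Of all tested genes 11.1% were called with SA and 11.7% in sgALAS1. SQOR, which oxidises sulfide in mitochondria, rose in both (log2 fold changes 0.63 with SA and 0.54 in sgALAS1; adjusted p = 0.00239 and 0.00762), and CTH, which makes cysteine, fell in both (-2.12 and -1.17, adjusted p = 0.000239 and 0.0378). GOT1, the cytosolic aspartate aminotransferase, fell with SA (-1.80) and ETHE1, the persulfide dioxygenase, in sgALAS1 (-0.68, adjusted p = 0.0454).

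The cytochromes b5 pass electrons to desaturases, P450s and other acceptors, CYB5A at the endoplasmic reticulum and CYB5B at the outer mitochondrial membrane. CYB5A (ENSG00000166347, chromosome 18) had 13.6, 13.9 and 16.9 CPM in SA against 14.9, 14.7 and 14.3 CPM in Vehicle, a log2 fold change of 0.02 (interval -0.48 to 0.51). In the guide arm it had 19.8, 20.0 and 10.4 CPM in sgALAS1 against 10.4, 14.5 and 15.7 CPM in sgSCR. Of the sgALAS1 libraries 2 lay above all of sgSCR and 1 at its low end, and the log2 fold change was 0.31 (interval -0.18 to 0.81, adjusted p = 0.466). CYB5B (ENSG00000103018, chromosome 16) had 46.4, 51.9 and 44.9 CPM in SA against 49.1, 53.0 and 58.0 CPM in Vehicle, and 56.8, 49.1 and 44.3 CPM in sgALAS1 against 52.4, 40.2 and 49.3 CPM in sgSCR. Both arms overlap, and the intervals, -0.46 to 0.14 and -0.21 to 0.39, do not reach a change of 1.5-fold.

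SCD, the stearoyl-CoA desaturase that draws on CYB5A, fell in both arms: 158 ± 6.42 CPM in SA against 408 ± 49.5 CPM in Vehicle (-1.37, adjusted p = 5.39e-09) and 182 ± 29.6 CPM in sgALAS1 against 274 ± 23.8 CPM in sgSCR (-0.59, adjusted p = 0.00129). Of 14 tested electron donors and partner enzymes SCD was the 1 called in each arm (7.14%, against 11.1% and 11.7% of all tested genes). FADS2, a desaturase with a b5 domain of its own, fell in both arms (-0.65 and -0.46, adjusted p = 0.00294 and 0.0383), and FADS1 fell with SA (-0.58, adjusted p = 0.00114). All 3 were also lower in sgSCR than in Vehicle (SCD -0.57, FADS1 -0.44, FADS2 -0.62). CYBRD1, a ferric reductase of the b561 family, rose in sgALAS1 (12.9 ± 3.96 CPM against 6.06 ± 1.43 CPM in sgSCR; 1.09, adjusted p = 0.01).

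DGCR8 (ENSG00000128191, chromosome 22) was not called in either arm. It had 16.3, 22.5 and 19.3 CPM in SA against 16.4, 20.1 and 18.0 CPM in Vehicle, and 20.5, 19.8 and 18.6 CPM in sgALAS1 against 15.1, 15.8 and 25.6 CPM in sgSCR. The libraries overlap, sgSCR replicate 3 being the highest of all 12. The log2 fold changes were 0.09 (interval -0.35 to 0.53) and 0.06 (-0.38 to 0.50), so a change of 1.5-fold lay outside the interval in each arm. TRMT2A, on the opposite strand, had 406 reads in SA against 525 in Vehicle and 525 in sgALAS1 against 521 in sgSCR, beside 316 and 340, and 326 and 329, reads of DGCR8.

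Of 16 genes of microRNA processing 0 were called by edgeR with SA (median -0.02), against 11.1% of all tested genes, and 1 by DESeq2. An unadjusted p under 0.05 in edgeR's test was held by 5 of them, and by 3380 of all 13832 tested genes. In sgALAS1, ADAR, an RNA editing enzyme, and TNRC6C, a partner of Argonaute, rose (0.38 and 0.48, adjusted p = 0.0277 and 0.0292 in edgeR's test). These are 12.5% of the list, near the 11.7% of all tested genes, and the median of the list was 0.01. DESeq2 called 3 there, and 4 had an unadjusted p under 0.05 in edgeR's test, as had 3435 of all tested genes. DROSHA, the nuclease that DGCR8 guides, had 63.7 ± 3.24 CPM in SA against 69.2 ± 11.5 CPM in Vehicle and 92.4 ± 12.9 CPM in sgALAS1 against 77.2 ± 8.09 CPM in sgSCR, not called (adjusted p = 0.67 and 0.258). Of 9 tested transcripts that host microRNAs, MIRLET7BHG and MIR142HG rose with SA (0.72 and 0.81, adjusted p = 0.00782 and 0.0163 in edgeR's test). That is 22.2% of the list, against 11.1% of all tested genes. DESeq2 called 4 of the list with SA, and 4 had an unadjusted p under 0.05. In sgALAS1 0 were called by edgeR, against 11.7% of all tested genes, and 1 by DESeq2, with 3 at an unadjusted p under 0.05. MIRLET7BHG had 31.4 ± 1.70 CPM in sgALAS1 against 22.7 ± 2.98 CPM in sgSCR (0.47, adjusted p = 0.0911).

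**Figure D4:**
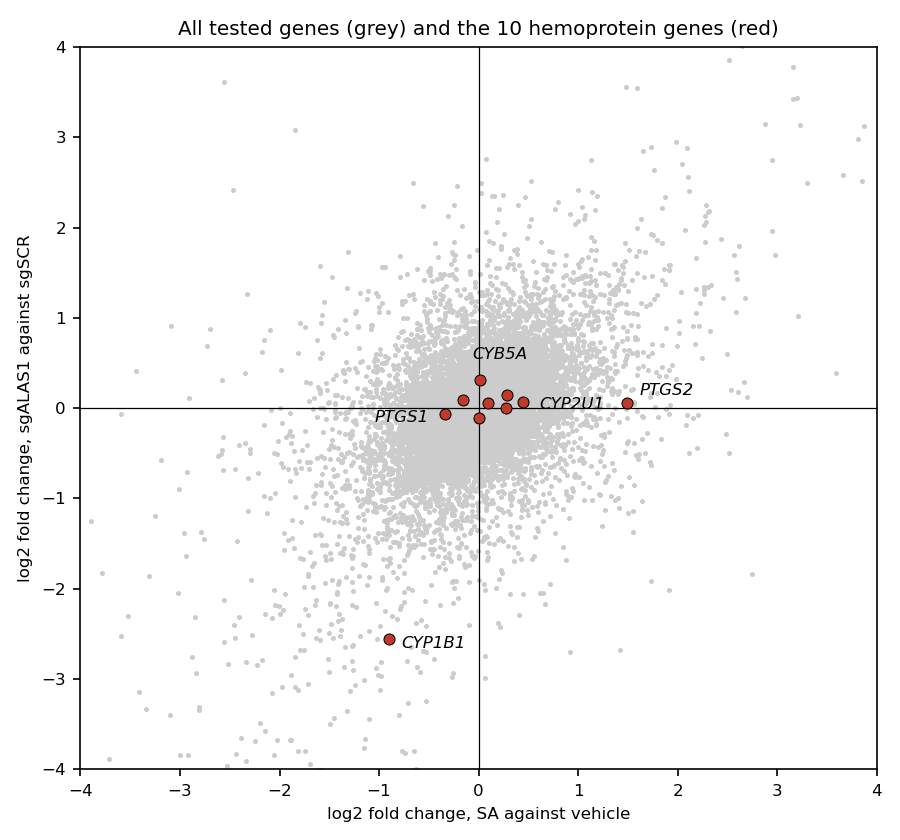
Log2 fold change with SA (horizontal axis) against log2 fold change in sgALAS1 (vertical axis) for the tested genes (grey; 173 lie outside the axes, which end at 4) and the 10 hemoprotein genes (red). CYP1B1 stands at -0.90 and -2.56, PTGS2 at 1.49 and 0.05, and the other 8 between -0.33 and 0.44 with SA and between -0.11 and 0.31 in sgALAS1.

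Other hemoproteins, taken from lists of P450s, b5 and b561 proteins, peroxidases, dioxygenases and heme sensors, were tested in 31 cases. With SA 3 rose and 3 fell (19.4% called, against 11.1% of all tested genes, median -0.13). In sgALAS1 4 rose and 1 fell (16.1%, against 11.7% of all, median 0.05). HMOX1, CYBB and CYGB rose in both arms. CYBB, the heme-carrying subunit of the phagocyte oxidase, had 209 ± 7.66 CPM in SA against 123 ± 0.57 CPM in Vehicle (0.77, adjusted p = 0.000122) and 132 ± 22.1 CPM in sgALAS1 against 66.4 ± 11.3 CPM in sgSCR (0.99, adjusted p = 3.12e-06); its sgSCR level was 0.89 below Vehicle on the log2 scale. CYGB, the globin of many tissues, had 9.71 ± 3.71 CPM in SA against 2.34 ± 0.48 CPM in Vehicle (2.04, adjusted p = 0.0063) and 6.25 ± 1.57 CPM in sgALAS1 against 0.949 ± 0.854 CPM in sgSCR (2.70, adjusted p = 0.00138). MPO, the peroxidase of granules, was rare here and not called in either arm. It had 1.71 ± 0.13 CPM in SA against 3.50 ± 1.27 CPM in Vehicle (-1.03, adjusted p = 0.21 in edgeR's test). In the guide arm it had 3.78 ± 0.68 CPM in sgALAS1 against 3.27 ± 0.53 CPM in sgSCR (0.21, adjusted p = 0.852).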

How the data were processed

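Per the labels' protocols, RNA was extracted with Trizol and made into QuantSeq 3′ libraries, read single-end. Per the submitters' processing notes, tools were bcl2fastq 2.17.1.14, cutadapt 1.14, HISAT2 2.0.4 with hg19 and featureCounts of Subread 2.0.0, with edgeR 3.34.0 and limma 3.48.3 also listed; annotation release, strand setting and multiply mapped reads: not given in the sources used here. As deposited, the table holds raw counts per Ensembl identifier, 12 columns matched by the library names in the labels. Symbols came from a gene table for 51996 identifiers and from GENCODE 29 for 342; 5567 stayed unnamed.

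With R 4.3.3 and edgeR 4.0.16, filterByExpr (minimum count 10) kept 13832 identifiers; the 4 groups entered a single fit with TMM scaling and the two-sided quasi-likelihood F-test, Benjamini-Hochberg adjusted over all tested genes, threshold 0.05. SE is the log2 fold change divided by the square root of F. The biological coefficient of variation was 16.4%, and Pearson correlations of log2 CPM within groups were 0.959 to 0.971. Alternatives were RLE scaling, DESeq2 1.42.0, no filter, fits of the compared groups alone, a replicate block and leaving out each library. The fit was also run on simulated data. The outcome is not reported here, and no result rests on it.

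The members and the lists were chosen with earlier results of these data known. Named beyond the members are, per list, up to 3 called genes with the smallest p with SA and up to 2 in sgALAS1, the 3 genes nearest in profile to each called member, ALAS1 and HMOX1. AHR, TIPARP, AHRR, POR, DROSHA, MPO and the genes with few reads or beside a member were named after their values were seen. Precision of low counts is limited by depth. Some genes that these rules name are not reported here.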

Additional observations from a re-analysis of the deposited data

Results flagged for a closer look

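CYP1B1 fell in both arms, and its effect in sgALAS1 cells differed from its effect in SA cells by -1.66 on the log2 scale (interval -2.20 to -1.13, adjusted p = 0.000249 in edgeR's test of the difference). All 3 sgALAS1 libraries lay below all 3 SA libraries, at 5.63 to 8.64 CPM against 21.2 to 27.7 CPM, while sgSCR (38.9 to 49.4 CPM) and Vehicle (42.8 to 48.4 CPM) overlapped. The difference was between -1.77 and -1.50 when any 1 library was left out, with adjusted p-values from 0.000204 to 0.00184, and between -1.67 and -1.65 under the other settings.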

How the results depend on the processing

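CYP1B1 kept its direction and its call with SA, in sgALAS1 and in the difference between the arms under RLE scaling, DESeq2, no filter, the compared groups alone (not applicable to the difference), the replicate block and without any 1 library: -0.99 to -0.80, -2.66 to -2.39 and -1.77 to -1.50 over the left-out libraries. PTGS2 kept its call with SA under the other settings and lost it without any of 3 libraries named above (range 1.23 to 1.68, adjusted p = 0.0256 to 0.139 in edgeR's test). The labels do not say whether libraries of the same replicate number belong together. Within each arm, correlations of deviations were -0.0661 to 0.0572 between libraries of the same number and -0.152 to 0.109 between those of other numbers. These few correlations cannot settle whether the samples are paired. With the replicate block 1704 genes were called with SA, 1796 in sgALAS1, 227 in the difference and 266 between the controls. Without it the counts were 1531, 1622, 164 and 198.

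Genes called ranged from 954 (without SA replicate 3) to 1595 with SA, also 955 without Vehicle replicate 2 and 982 without SA replicate 1, where all libraries gave 1531; from 1134 to 1415 in sgALAS1 (1622); from 109 (without sgSCR replicate 1) to 340 (without Vehicle replicate 1) in the difference (164); and from 84 (without sgSCR replicate 1) to 276 between the controls (198), with 104 without Vehicle replicate 2. No filter gave 277 in the difference and DESeq2 300 between the controls; the cause was not tested.

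Some values that were not called changed sign, part of them close to 0 and part of them over wider ranges. Over the left-out libraries the ranges with SA were CAT -0.096 to 0.090, CYB5A -0.086 to 0.074, DGCR8 -0.029 to 0.20 and TBXAS1 -0.11 to 0.55. CYP2U1 kept its sign there, at 0.14 to 1.15. In sgALAS1 they were CAT -0.20 to 0.0045, CYP2U1 -0.62 to 0.45, SUOX -0.22 to 0.43, CYB5B -0.018 to 0.18, DGCR8 -0.073 to 0.35, PTGS1 -0.31 to 0.064, PTGS2 -0.44 to 0.38 and TBXAS1 -0.0052 to 0.25. In the difference they were SUOX -0.51 to 0.15, DGCR8 -0.16 to 0.25 and TBXAS1 -0.40 to 0.26. Between the controls they were CAT -0.019 to 0.17, CYP1B1 -0.12 to 0.040, CYP2U1 -0.22 to 0.79, CYB5A -0.24 to 0.041 and DGCR8 -0.24 to 0.19. CAT with SA was at -0.0047 with no filter, and SUOX in sgALAS1 at 1.6e-05 with RLE scaling. Depth limits CYP2U1, PTGS2 and SUOX most.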
